A study of Mus musculus with 8 samples.

Results

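Keratins and proteins of the cornified envelope, genes of surface epithelia, were followed in cultured vascular smooth muscle cells. The set held 10 genes: the keratins Krt7, Krt8, Krt13, Krt14, Krt18 and Krt19, the small proline-rich proteins Sprr1a and Sprr2d, the uroplakin Upk3b and the claudin Cldn7. All 12 probes that the platform annotation assigns to these symbols were taken, of 25697 probes on the array, which name 16593 genes. The genes were picked with the difference between the groups already known, so their differences are given as a description with no test. Upk3b and Cldn7 stand beside the keratin and envelope genes as other epithelial genes.

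Primary vascular smooth muscle cells had been isolated from carotid arteries of C57bl6 males. All of them lacked PMCA4, a calcium export pump that Atp2b4 encodes. In 4 samples the cells stayed PMCA4 knockout, and in 4 they had been electroporated with cDNA of PMCA4a, called rescued here. Every sample was synchronised by serum, then given serum plus PDGF-BB and collected in late G1/S, and biotin-labelled cRNA was hybridised to a 1-colour Illumina bead array. No knockout cells electroporated without PMCA4a were analysed here, so electroporation and PMCA4a cannot be told apart. The labels do not say whether replicates were separate cultures or animals, so the spread between samples may be technical.

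Keratins are the intermediate filaments of epithelial cells. A type I keratin pairs with a type II keratin to build a filament: Krt13, Krt14, Krt18 and Krt19 are type I, and Krt7 and Krt8 are type II. In stratified epithelia that cornify, small proline-rich proteins and loricrin are cross-linked by transglutaminases into an envelope under the plasma membrane. Smooth muscle filaments are built mainly from vimentin and desmin.

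The promoters of the 3 members with a match to TGANTCA, a loose form of the AP-1 site, are shown first. These 3 genes, and Krt19, were higher on every rescued array than on any knockout array. That pattern was seen in 21.6% of all tested genes, and a tie between motif and level was not tested. RefSeq windows on GRCm38.p6, from 250 bases before to 50 after a transcription start, were at hand for 9 of the 10 genes, all but Krt19, in 11 windows. The first Krt13 window is chr11:100121517-100121816 on the minus strand. The Sprr1a window is chr3:92485832-92486131 on the minus strand, and the Sprr2d window is chr3:92338890-92339189 on the plus strand. Capitals mark TGANTCA and TATAAA, a form of the TATA box. TGANTCA takes any middle base, whereas the site bound by AP-1 factors has C or G there. The match in the first Krt13 window, TGAATCA, is of the loose form only.
Krt13: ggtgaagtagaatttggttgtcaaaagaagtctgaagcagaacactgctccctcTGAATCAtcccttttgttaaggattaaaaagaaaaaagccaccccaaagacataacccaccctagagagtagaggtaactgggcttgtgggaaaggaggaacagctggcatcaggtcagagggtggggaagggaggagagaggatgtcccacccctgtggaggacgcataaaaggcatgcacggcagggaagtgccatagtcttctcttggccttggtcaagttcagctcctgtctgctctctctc
Sprr1a: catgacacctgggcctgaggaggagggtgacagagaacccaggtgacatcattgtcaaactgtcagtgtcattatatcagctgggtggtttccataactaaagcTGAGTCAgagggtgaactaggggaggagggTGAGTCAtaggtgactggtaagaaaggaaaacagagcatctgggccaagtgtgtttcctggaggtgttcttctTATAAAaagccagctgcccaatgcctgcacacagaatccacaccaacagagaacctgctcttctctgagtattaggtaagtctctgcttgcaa
Sprr2d: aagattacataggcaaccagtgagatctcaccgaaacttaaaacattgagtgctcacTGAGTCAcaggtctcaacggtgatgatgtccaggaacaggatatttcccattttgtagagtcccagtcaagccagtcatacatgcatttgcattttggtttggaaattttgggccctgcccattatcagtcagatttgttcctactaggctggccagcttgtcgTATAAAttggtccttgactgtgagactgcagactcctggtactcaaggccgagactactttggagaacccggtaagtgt

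The motif TGANTCA reads the same on both strands, and no match overlapped a match of another motif searched. It lies 196 bases before the start in Krt13, 146 and 116 bases before it in Sprr1a, and 193 bases before it in Sprr2d. A second Krt13 window, chr11:100120528-100120827 on the minus strand, also holds it, as TGACTCA, at 183 and 34 bases before that start. No other window of a member held it, and it occurs in 7.81% of the 32851 windows of this length. TATAAA, searched on both strands, lies 43 bases before the start in Sprr1a and 29 in Sprr2d and occurs in 13.6% of all windows. Krt8 holds it at its start as overlapping matches on both strands, 3 and 1 bases before. The AP-2 motif GCCNNNGGC, also read alike on both strands, was found in Krt7 and Krt18 and in 16.6% of all windows. The motifs were chosen after the expression values were seen, and a match is a run of letters only.

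The 4 rescued arrays detected 12640 to 12873 probes and the 4 knockout arrays 12223 to 12427, at a detection p below 0.05. Median intensities were 115 to 118 on the rescued arrays and 108 to 118 on the knockout arrays. A probe was tested if detected on at least 4 of the 8 arrays, which 12658 probes of 8633 genes were, among them probes of 6 members. Values below are normalized intensities on a log2 scale, and levels are compared within a probe only, since probes differ in brightness. The targeted gene does not check the labels here: of 3 Atp2b4 probes 2 were detected on no array, and the third read 5.54 ± 0.22 (SD, n = 4) in rescued and 5.51 ± 0.24 (SD, n = 4) in knockout cells. In these bulk samples fewer cells of a type and less RNA per cell cannot be told apart.

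**Figure D1:**
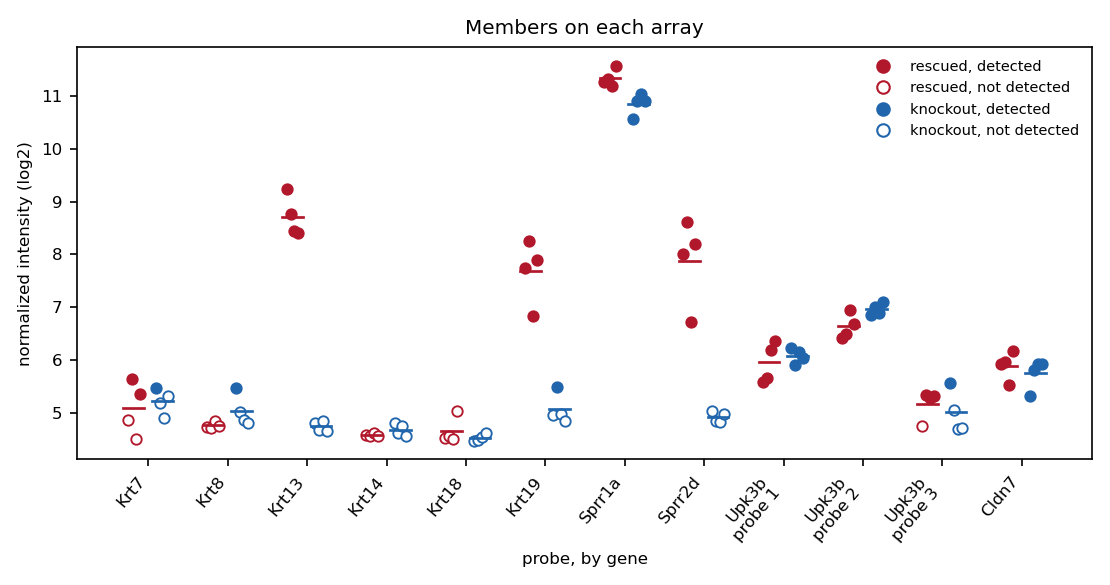
Normalized log2 intensity of the 12 probes of the 10 genes on each array, with a bar at each group's mean. Filled points were detected and open points were not. For Krt13, Krt19, Sprr2d and, narrowly, Sprr1a all 4 rescued points lie above all 4 knockout points, as in 21.6% of all tested genes. The Krt14 and Krt18 points are open in both groups.

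Among the type I keratins, Krt13 and Krt19 were detected in rescued cells and Krt14 and Krt18 were not detected on any array. Krt13, a keratin of the suprabasal layers of wet stratified epithelia, read 9.24, 8.76, 8.44 and 8.41 on rescued arrays 1 to 4 and 4.81, 4.67, 4.85 and 4.65 on the knockout arrays. No knockout array detected it and every rescued array did. The means were 8.71 ± 0.38 (SD, n = 4) and 4.74 ± 0.10 (SD, n = 4), a difference of 3.97, and the level was at least 10.6-fold higher in rescued cells against the detection limit. On the deposited linear scale, before any background correction, the rescued arrays read 427 to 707 and the knockout arrays 91.8 to 106. Without background correction the log2 difference was 2.15, which is less than the bound.

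Krt19, a small type I keratin of simple epithelia and of mesothelium, read 7.74, 8.26, 6.83 and 7.90 on rescued arrays 1 to 4. It read 4.95, 5.49, 4.97 and 4.84 on the knockout arrays, of which only replicate 2 detected it. The lowest rescued array, replicate 3, lay 1.34 above the highest knockout array. The means were 7.68 ± 0.61 (SD, n = 4) and 5.06 ± 0.29 (SD, n = 4), a log2 difference of 2.62, or 1.26 without background correction.

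Krt14, the type I keratin of basal keratinocytes, read between 4.56 and 4.62 on the rescued arrays and between 4.56 and 4.81 on the knockout arrays. Krt18, the type I keratin of simple epithelia, read 4.52, 4.57, 4.50 and 5.04 in rescued cells and 4.47 to 4.62 in knockout cells. Both probes stayed within the reach of background on all 8 arrays, so the arrays set no level for them.

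The type II members gave little signal in either group. Krt7, a type II keratin of ductal and simple epithelia, read 4.86, 5.63, 4.51 and 5.36 in rescued cells and 5.46, 5.18, 4.90 and 5.32 in knockout cells. It was detected on 2 rescued arrays and 1 knockout array, and the groups overlap. Krt8, the usual partner of Krt18, read 4.71 to 4.85 in rescued cells and 4.80 to 5.48 in knockout cells, with 1 detection, on knockout replicate 1. Krt7, Krt8 and Krt18 lie on chromosome 15, whose 512 tested probes had a median difference of 0.21. Once that shift is removed Krt18 reads -0.08 in place of 0.13.

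The 2 small proline-rich members differed in their knockout values, with Sprr2d at background and Sprr1a bright. Sprr2d, an envelope precursor of the spinous and granular layers, read 7.998, 8.61, 6.71 and 8.20 on the rescued arrays and 5.03, 4.84, 4.83 and 4.98 on the knockout arrays. Every rescued array detected it and no knockout array did, and replicate 3 was the lowest of the rescued arrays. The means were 7.88 ± 0.82 (SD, n = 4) and 4.92 ± 0.10 (SD, n = 4), a difference of 2.96, and the level was at least 5.97-fold higher in rescued cells. Without background correction the difference was 1.47, below that bound. The Sprr2 genes are near-identical copies, and the probe sequences were not used here, so whether the probe also reads other copies was not tested.

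Sprr1a, an envelope precursor that is also induced in injured neurons and stressed heart muscle, was bright in both groups. It read 11.27, 11.32, 11.18 and 11.57 in rescued cells and 10.56, 10.91, 11.03 and 10.91 in knockout cells. The groups do not overlap, as in 40.9% of all tested genes, but the lowest rescued array lies only 0.15 above the highest knockout array. The means were 11.33 ± 0.17 (SD, n = 4) and 10.85 ± 0.20 (SD, n = 4), a log2 difference of 0.48. Sprr1a and Sprr2d lie on chromosome 3, whose 600 tested probes had a median difference of -0.18, and with that shift removed they read 0.66 and 3.13.

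Upk3b, a uroplakin of urothelium and mesothelium, had 3 probes, and on each of them the groups overlap. The probe ILMN_2941714 read 6.42, 6.49, 6.95 and 6.68 in rescued cells and 6.85, 6.99, 6.89 and 7.09 in knockout cells, a difference of -0.32. The probe ILMN_2941712 differed by -0.13 and the probe ILMN_2941715 by 0.16, so they do not share a direction. Cldn7, a claudin of epithelial tight junctions, read 5.92, 5.97, 5.52 and 6.17 in rescued cells and 5.33, 5.82, 5.93 and 5.92 in knockout cells. Its difference was 0.15, with all 8 arrays detecting it.

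Of the 6 tested members 4 were past the threshold of limma's adjusted p of 0.05, all higher in rescued cells, where 21% of all 8633 tested genes were higher and 18.9% lower, and 38.8% of probes passed in either direction. Krt13, Krt19, Sprr1a and Sprr2d were picked on this contrast, and Krt13, Krt19 and Sprr2d passed the detection filter only through the rescued arrays, so nothing is read from that count. Over the whole array, 147 of 25697 probes, or 0.572%, were detected on all rescued and no knockout array, as those of Krt13 and Sprr2d were. The reverse pattern was seen in 69 probes, or 0.269%. A log2 difference of at least 2 with the higher level in rescued cells, as in Krt13, Krt19 and Sprr2d, was seen in 59 of the tested genes, or 0.683%. Of the tested members past the threshold Sprr1a had the smallest difference, 0.48, and of those not past it Upk3b had the largest, -0.32. The threshold is set on the adjusted p and not on the difference.

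The rescued arrays were further apart on several member probes than on most tested probes. The SD over the rescued arrays was 0.82 for Sprr2d, 0.61 for Krt19 and 0.38 for Krt13, against a median of 0.15 over the 12658 tested probes. These SDs stand at percentiles 99.5, 98.6 and 94.3 of those probes, while that of Sprr1a, 0.17, stands at percentile 57.7. The wide spread was not particular to the genes that were higher in rescued cells. Krt7, dim and not tested, had an SD of 0.50 (percentile 97.6), and the Upk3b probe ILMN_2941712 had 0.39 (percentile 94.4). From the lowest to the highest rescued array Sprr2d spanned 3.71-fold, Krt19 2.70-fold and Krt13 1.77-fold. Sprr2d and Krt19 shared their order, highest on replicate 2 and lowest on replicate 3, whereas Krt13 was highest on replicate 1 and lowest on replicate 4. Leaving out rescued replicate 3 raised the differences to 3.33 for Sprr2d, 2.89 for Krt19 and 4.04 for Krt13.

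The low values of rescued replicate 3 ran through the epidermal differentiation genes, the cluster on chromosome 3 that holds the small proline-rich, late cornified envelope and loricrin genes. Of the 53 genes of this cluster from Lor to Tchh, 35 had a probe and 10 of those were detected on at least 3 rescued arrays. This subset was formed after the values were seen. Replicate 3 was the lowest rescued array in 9 of these 10 genes, or 90%, and in 33.4% of all tested genes. Sprr2a1, named after its values were seen, was the exception, with 7.24, 7.50, 7.54 and 7.25 in rescued cells. The 4 genes detected on 3 rescued arrays were all undetected on replicate 3. The 10 genes include the members Sprr1a and Sprr2d. Low values on replicate 3 were not confined to this cluster. Of the named genes given below that fell past the threshold, all but Actg2, F11r and Twist1 were also lowest there among the rescued arrays, on their brightest probe.

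Sprr2e and Lce1g, named after their values were seen, were among the 4 undetected on rescued replicate 3. Sprr2e, a neighbour of Sprr2d in the cluster, read 5.81, 6.16, 4.74 and 6.85 in rescued cells and 4.47 to 4.62 in knockout cells. Lce1g, a late cornified envelope gene, read 7.14, 7.86, 4.84 and 6.04 in rescued cells and 4.64 to 4.92 in knockout cells. Neither was detected on any knockout array, while rescued replicates 1, 2 and 4 all detected both. Lor, loricrin, also named after its values were seen, was undetected on all knockout arrays and read 5.40, 5.37, 4.58 and 5.38 in rescued cells. Detected on fewer than 4 arrays, these 3 genes were not tested. The remaining gene of the 4, Lce1f, read 6.05, 7.20, 4.84 and 5.95 in rescued cells and 5.44 to 5.77 on the knockout arrays, all of which detected it.

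**Figure D2:**
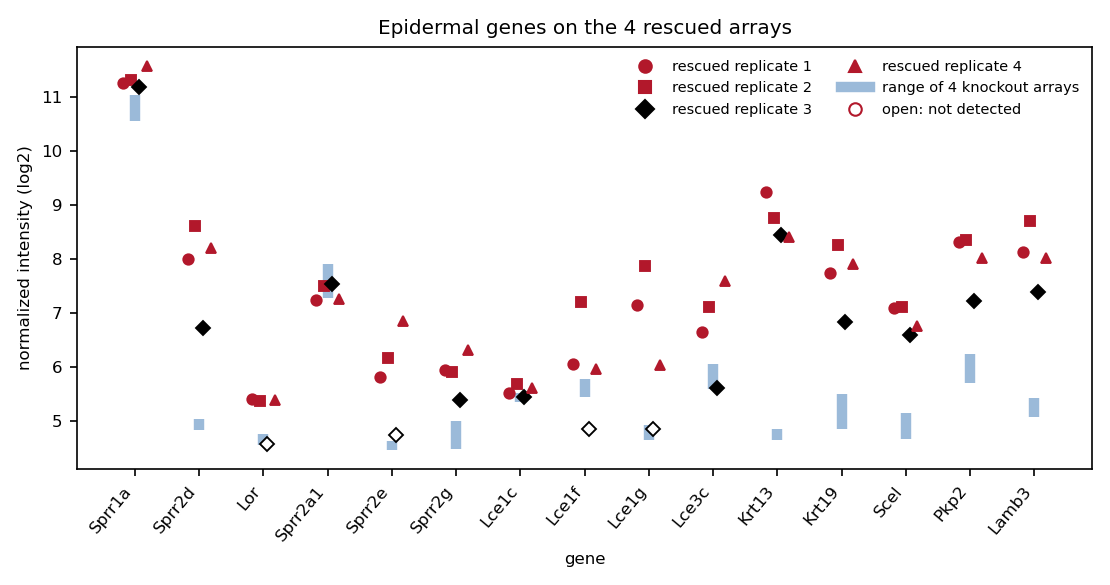
Normalized log2 intensity of the 10 epidermal differentiation genes detected on at least 3 rescued arrays, then of Krt13, Krt19, Scel, Pkp2 and Lamb3, chosen after their values were seen. Each symbol is 1 rescued array, open where the probe was not detected, and the blue bar spans the 4 knockout arrays. Replicate 3, in black, is the lowest rescued array for 9 of the 10 epidermal differentiation genes, and for Krt19, Scel, Pkp2 and Lamb3, but not for Krt13.

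Rescued replicate 3 also stood apart in its summed fibroblast markers, 18560 on the linear scale where the 4 rescued arrays ranged from 7720 to 18560 and the knockout arrays from 10351 to 11726. Of the rescued arrays it was highest in the summed keratinocyte markers (1189) and mesothelial markers (735), and lowest in those of simple epithelium (343), urothelium (576), smooth muscle (57570) and endothelium (195). The keratinocyte sum is mostly Krt10, which read 9.79, 9.65, 9.94 and 9.54 on rescued arrays 1 to 4. Of its 9 markers 6 were detected on no array. The simple epithelial sum holds Krt19 itself. The part of any of these in the low envelope values was not tested.

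Few neighbours of the members were detected, in the gene order of RefSeq GRCm38.p6. In the type I keratin cluster from Krt33a to Krt42, 12 of 15 genes had a probe, 2 of them, Krt13 and Krt19, were detected on all rescued arrays, and 8 were detected on no array. Krt15, named after its values were seen, is a basal layer keratin. It lies between Krt13 and Krt19 and read 4.73 to 5.06 in rescued cells and 4.83 to 5.61 in knockout cells, where 2 arrays detected it. In the type II cluster, with Krt18 at its end, 25 of 28 genes had a probe, 19 were detected on no array and only Krt75 was detected on all rescued arrays.

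Of the 23 type I keratins with a probe, members included, 3 were detected on all rescued arrays and 1 on all knockout arrays. That 1 was Krt10, a suprabasal keratin, at 9.73 in rescued and 9.66 in knockout cells. Of the 20 type II keratins counted 1 was detected on all rescued arrays and 0 on all knockout arrays. Krt87, Krt88 and Krt90, named after their values were seen, also had a probe but were not counted, and no array detected them. Krt75, a type II keratin of the hair follicle, read 5.78, 5.88, 6.04 and 6.08 in rescued cells and 6.21, 5.39, 6.36 and 5.03 in knockout cells. The rescued values of Krt75 lie within the knockout range.

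**Figure D3:**
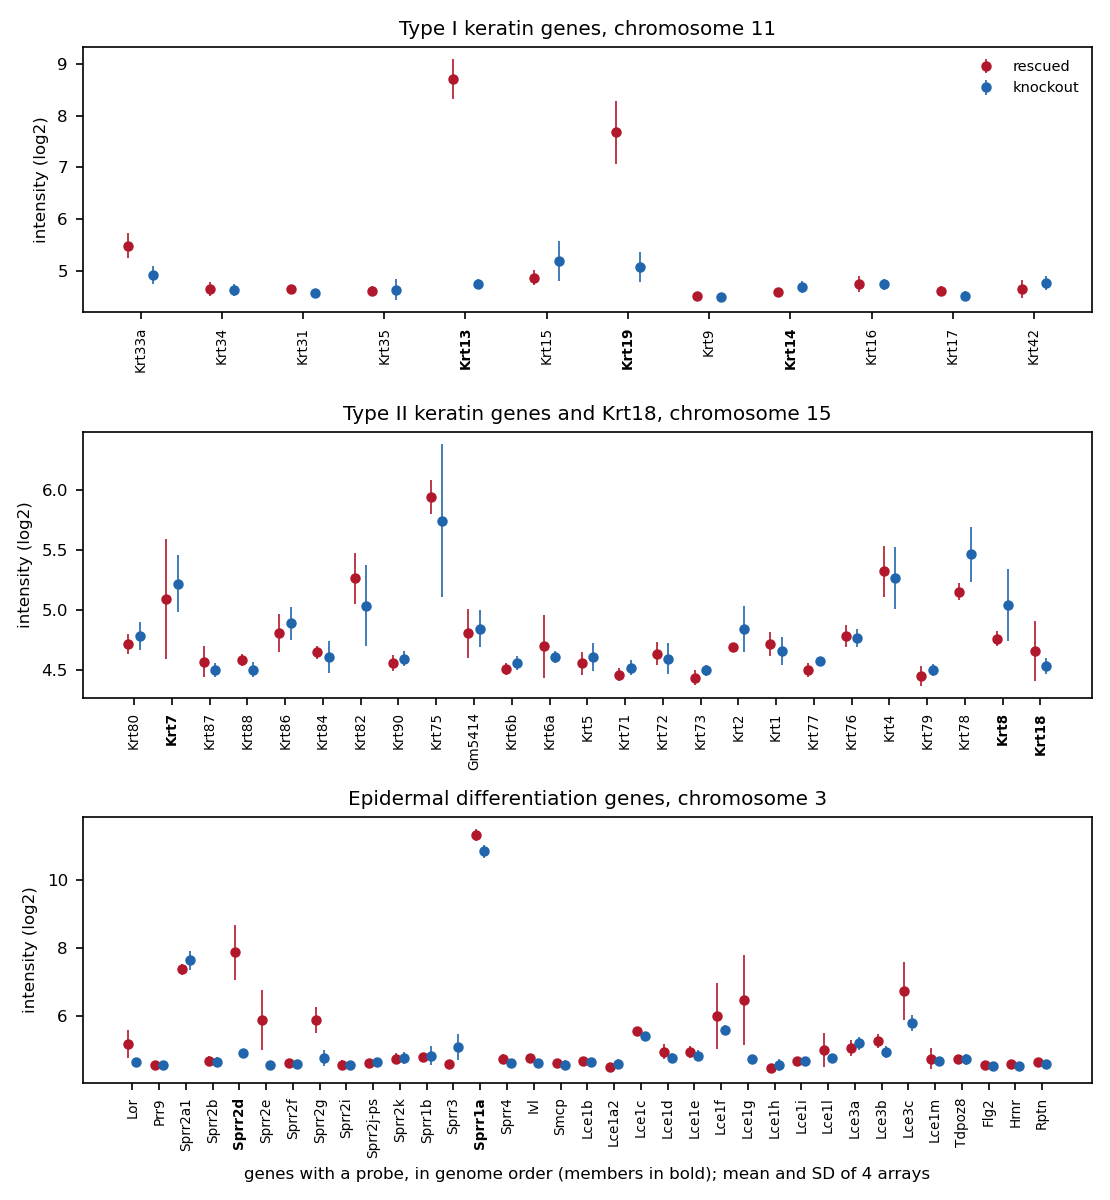
Mean and SD over 4 arrays of the log2 intensity of each gene with a probe, in genome order, for the type I keratin cluster, the type II keratin cluster with Krt18, and the epidermal differentiation cluster. Members are in bold, and heights compare groups within a gene and not genes with each other. Krt13 and Krt19 stand out in the first panel and no gene does in the second. In the third, the rescued mean lies furthest above knockout for Sprr2d, Sprr2e, Sprr2g, Lce1g and Lce3c. It lies above by less for others, among them Lor, Sprr1a and Lce1f.

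Related genes outside the set were counted in 8 lists, read against 39.9% of all tested genes past the threshold and a median difference over all tested genes of 0.01. Of 46 other keratins 38 had a probe, 29 of them were detected on no array and 4 were tested. None of the 4 rose or fell, with differences from -0.31 to 0.20 and a median of 0.06. The lowest was Krt78, a type II keratin, with a limma adjusted p of 0.0502. At an unadjusted p below 0.05 in limma the count was 1 of the 4, Krt78, which is named after its values were seen, as are Krt10 and Krt75. Without knockout replicate 4 Krt78 passed, at -0.42 (limma adjusted p = 0.00728).

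Of 54 other cornified envelope genes 43 had a probe, 26 were detected on no array and 9 were tested, with 2 higher, 1 lower and a median of 0.16. Scel, sciellin, an envelope precursor, read 7.09, 7.10, 6.58 and 6.75 in rescued cells and was undetected on every knockout array. It rose by at least 2.98-fold (log2 difference 1.99, limma adjusted p = 8.67e-06) on the background-corrected scale. Sprr2g, annotated in RefSeq as a transcribed pseudogene of the Sprr2 family, rose by at least 1.49-fold on that scale (1.11, limma adjusted p = 0.0016). Without background correction the log2 differences of Scel and Sprr2g were 0.82 and 0.43, each below its bound. Both were detected on all rescued arrays and on no knockout array, so they passed the detection filter only through the rescued arrays. Nothing is read from their calls. With detection required on all 8 arrays the list had 0 higher and 1 lower. Corneodesmosin, Cdsn, which holds cornified cells together, went the other way.

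Cdsn read 7.52, 7.09, 6.98 and 7.06 in rescued cells and 9.67, 9.61, 9.80 and 9.71 in knockout cells. It fell by 2.53 on the log2 scale (limma adjusted p = 5.24e-07), and its other probe, undetected on every rescued array, fell by at least 4.04-fold. Lce3c, a late cornified envelope gene, read 6.64, 7.12, 5.61 and 7.59 in rescued cells and 5.59 to 6.06 in knockout cells, a difference of 0.95 (limma adjusted p = 0.0614). Without rescued replicate 3 the list had 6 calls in place of 3, with Lce3c, Lce1f and Klk7 added. Lce3c and the genes of that count were named after their values were seen.

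Of 42 epithelial junction genes 35 had a probe, 18 were detected on no array and 12 were tested, with 4 higher, 2 lower and a median of 0.24. Lamb3, a chain of the basement membrane protein laminin, read 8.12, 8.71, 7.39 and 8.01 in rescued cells and 5.06 to 5.43 in knockout cells. It rose by 2.77 (limma adjusted p = 2.45e-05), lowest again on replicate 3. Lamb3 was detected on 4 rescued and 2 knockout arrays, so it reached the detection filter only with the rescued arrays. Pkp2, the desmosomal plakophilin 2, rose by 1.98 (limma adjusted p = 2.32e-04), and its 3 probes all rose, by 1.98 and 2.13 on the log2 scale and by at least 2.03-fold on the probe that no knockout array detected. Itga6, an integrin of hemidesmosomes, fell by 1.08 and F11r, a tight junction adhesion molecule, by 1.13 (limma adjusted p = 3.55e-04 and 9.07e-04). Cdh1, E-cadherin, differed by 0.25 (limma adjusted p = 0.141), with detection on 4 rescued arrays and 2 of the knockout. Without background correction the differences of Lamb3, Pkp2, Itga6 and F11r were 1.44, 1.13, -0.57 and -0.59. Without rescued replicate 3 Cdh1 passed the threshold, at 0.33 (limma adjusted p = 0.0370).

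Of 22 regulators of epithelial genes 21 had a probe and 7 were tested, with 0 higher, 1 lower and a median of -0.12, and without knockout replicate 2 Elf3, named after its values were seen, passed as well (-0.50, limma adjusted p = 0.0141). The 1 lower was Tfap2a, the factor AP-2 alpha, which read 5.32, 5.62, 5.13 and 6.02 in rescued cells and 9.44, 9.48, 9.36 and 9.57 in knockout cells. It fell by 3.94 (limma adjusted p = 4.32e-07), and a further probe, undetected on every rescued array, fell by at least 6.51-fold. Without background correction the difference of Tfap2a was -2.49. Trp63, the master factor of stratified epithelia, was detected on no array.

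Of 19 uroplakin and mesothelial genes 7 were tested, with 1 higher, 4 lower and a median of -0.49. Upk1b, a uroplakin, fell by 0.88 (limma adjusted p = 0.00355), Aldh1a2, which makes retinoic acid, by 1.83 (limma adjusted p = 1.53e-05), and Pdpn, podoplanin, by 0.76 (limma adjusted p = 0.0164). With each chromosome centred Pdpn no longer passed (-0.57, limma adjusted p = 0.0567). Ezr, ezrin, a linker of membrane and actin, rose by 1.12 (limma adjusted p = 2.96e-05). Without background correction the difference of Aldh1a2 was -0.83. Msln, mesothelin, was detected on no array and Wt1 on 1 rescued array.

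**Figure D4:**
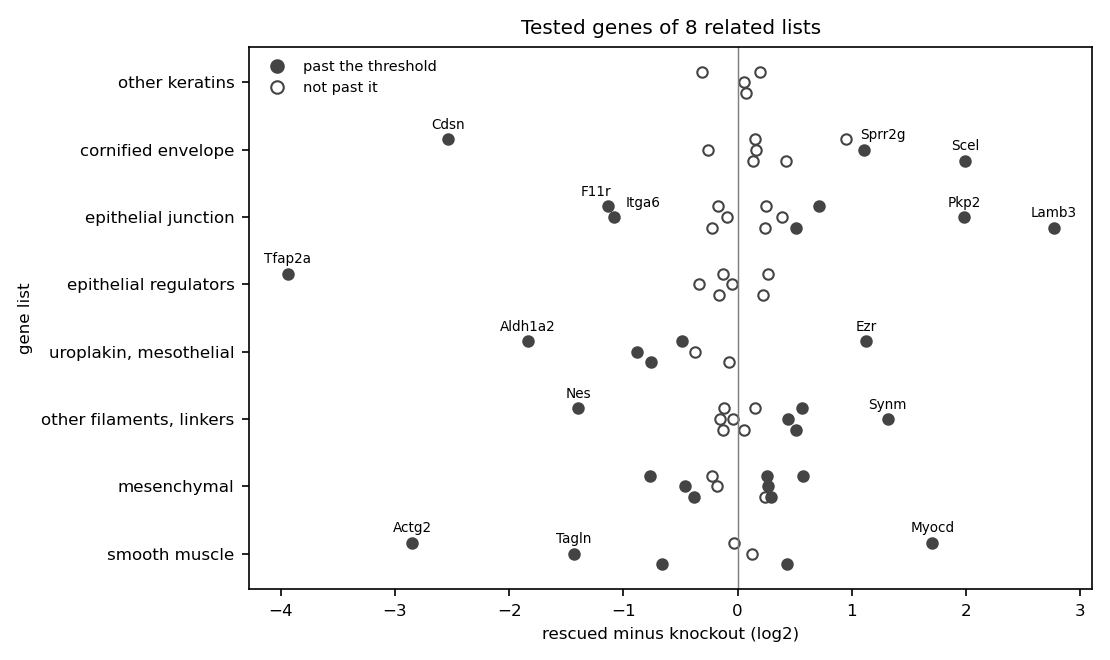
Difference, rescued minus knockout on the log2 scale, of every tested gene of the 8 lists, none of them a member. Filled points are past limma's adjusted p of 0.05, and names are given for filled points beyond about 1. Scel, Sprr2g, Pkp2 and Lamb3 lie to the right, and Cdsn, Tfap2a, Aldh1a2 and Actg2 to the left.

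Other intermediate filaments and their linkers had 11 tested genes, with 4 higher, 1 lower and a median of 0.05. Vim, vimentin, the main filament of these cells, differed by 0.05 (limma adjusted p = 0.655). Synm, synemin, a partner of desmin and vimentin, rose by 1.31 (limma adjusted p = 7.51e-05), although the dimmest of its 3 probes did not pass. Lmnb2, a nuclear lamin, rose by 0.56 (limma adjusted p = 2.44e-04), and Dst, dystonin, a filament linker, by 0.51 (limma adjusted p = 0.00147) on its brightest probe. The Dst probes ILMN_1244098 and ILMN_2741765 also passed, while ILMN_2758234 (0.33) and ILMN_2750431 (0.42) did not. Nes, nestin, fell by 1.40 (limma adjusted p = 0.00278).

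All 10 mesenchymal genes with a probe were tested, and 4 were higher and 3 lower, with a median of 0.03. Snai1, a repressor of epithelial genes, fell by 0.77 (limma adjusted p = 0.0016) and Twist1, a factor of mesenchyme, by 0.46 (limma adjusted p = 0.00843), but with each chromosome centred Twist1 no longer passed (-0.14, limma adjusted p = 0.329). Cdh2, N-cadherin, rose by 0.57 (limma adjusted p = 0.00798), while a dimmer probe of it differed by 0.14 without passing. Prrx1, a mesenchymal factor, rose by 0.26 (limma adjusted p = 0.018) on its brightest probe, and 2 of its 4 tested probes did not pass. That call was lost with each chromosome centred (0.17, limma adjusted p = 0.0883) and with median scaling (limma adjusted p = 0.0559). Without rescued replicate 3 this list had 4 calls in place of 7, and with each chromosome centred 3.

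Of 7 tested smooth muscle genes 2 were higher and 3 lower, with a median of -0.03. Actg2, an enteric smooth muscle actin, fell by 2.85 (limma adjusted p = 3.38e-06) and Tagln, the actin-binding transgelin, by 1.43 (limma adjusted p = 1.62e-04). Myocd, myocardin, the coactivator of contractile genes, rose by 1.70 on the 1 of its 3 probes that was tested (limma adjusted p = 6.15e-04). That probe was detected on 4 rescued arrays and 1 knockout array, so it reached the detection filter only with the rescued arrays. Without background correction Actg2 and Myocd differed by -1.74 and 0.70. Tpm2, a tropomyosin, fell by 0.66 on its brightest probe (limma adjusted p = 0.00214). A dimmer probe rose by 0.92 and also passed (limma adjusted p = 0.0109), so the tested probes of Tpm2 give opposite calls.

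Defining markers of other cell types were looked for beside the members. Of 9 keratinocyte markers with a probe 6 were detected on no array, among them Krt5, Krt14 and Trp63. Summed on the linear scale, the 9 ranged from 966 to 1189 on the rescued arrays and from 978 to 1047 on the knockout arrays. Krt10 made up most of that sum in both groups. Of 9 simple epithelial markers 3 were detected on no array, and the sums were 343 to 594 and 295 to 321. Without the members among them the remaining 4 summed to 110 to 125 and 113 to 138, so the higher sum came from members. Epcam had no probe named here.

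Of 8 mesothelial markers 2 were detected on no array, and the sums were 534 to 735 in rescued and 520 to 576 in knockout cells, or 208 to 469 and 328 to 371 without members. Of 6 urothelial markers 3 were detected on no array, with sums of 576 to 915 and 1229 to 1426. Upk1b made up most of the urothelial sum in both groups, so the lower sum mainly repeats its fall. Smooth muscle markers, the labelled type, summed to 57570 to 63021 and 60651 to 65734, with Acta2, named after its values were seen, bright in both groups and Cnn1 and Lmod1 detected on no array. Endothelial markers summed to 195 to 250 and 171 to 190 with 4 of 6 detected on no array, and the 3 macrophage markers with a probe were detected on no array.

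The mean profile of the 6 tested members, as a difference from the knockout mean, was 1.72, 1.85, 1.22 and 1.77 on rescued arrays 1 to 4. Likeness to it was measured as root mean square distance over the 8 arrays. Since the members were picked on the contrast, so in effect were the genes nearest to them, and their differences are a description. Nearest was Chn2, a Rac GTPase-activating protein, at 0.13, with a difference of 1.59. Ndrg2 followed at 0.14, Pxylp1, a xylose phosphatase, at 0.15, Pparg, a nuclear receptor of fat cells, at 0.15, and Eno3, the muscle form of enolase, at 0.18. Their differences were 1.49, 1.59, 1.82 and 1.60. Each of the 5 was lower on replicate 3 than on replicate 2, as was the profile they were chosen by, so nothing is read from that order.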

How the data were processed

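Expression was measured on 8 bead arrays, 4 rescued and 4 knockout, with groups taken from the genotype label. The authors deposited 1 linear intensity for each probe on each array, not normalized per the file headers, and a detection p-value beside it. A table of log2 values was also deposited by the authors, and how it was made is not stated in the labels or headers. It correlated at 1 with the values computed here and differed by at most 0.0266. Slide and scan date are not in the files used, so neither was examined as a batch, and 0 columns were left without a sample.

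The function neqc of limma 3.58.1 (R 4.3.3) corrected the background, with negative controls inferred from detection, and quantile-normalized the arrays, adding an offset of 16. Probes detected at p below 0.05 on at least 4 of 8 arrays were fitted with lmFit and eBayes, with Benjamini-Hochberg adjustment over these 12658 probes. Each gene stands for its brightest tested probe. For a probe detected on no array of the dim group, the bound compares the bright group with the detection limit: per dim array, the lowest level among detected probes or the probe's own level, whichever is higher. It holds on the background-corrected scale. Of the probes, 23978 had 1 gene symbol, 0 several and 1719 none, and 23962 matched RefSeq GRCm38.p6 by gene identifier. Precision is limited by there being 4 arrays a group.

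The members and all lists were chosen with earlier results of these data known. The text names all members, up to 4 called genes per list with the smallest p, Cdh1, Epcam, Trp63, Krt5, Msln, Wt1 and Vim, and the 5 genes nearest the members' mean profile. Others are said to be named after their values were seen. In a simulation with 12658 probes, 100 probes were changed 1.5-fold and 100 were changed 2-fold. Of these 67% and 91% were called, beside 20 false calls. In the data 38.8% of probes were called, a far larger share than was changed in the simulation, so these rates need not hold there. Alternatives were other background corrections, scalings, filters and variance models, array weights, the deposited log2 values, the replicate number as a block, centred chromosomes, averaged probes, and each array left out.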

Additional observations from a re-analysis of the deposited data

Results flagged for a closer look

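Among the 12 member probes and the probes of the named genes, 43 in all and 86 groups of 4 arrays, 5 groups held 1 array far from the other 3. Chance puts about 1 in 20 such groups there. Krt18 read 5.04 on rescued replicate 4, where the nearest of the others read 4.57, and no array detected it. The Upk3b probe ILMN_2941715 read 4.75 on rescued replicate 1, undetected there, with the nearest at 5.28. The other 3 were knockout arrays: Lmnb2 at 9.17 on replicate 3 with the nearest at 9.30, Pdpn at 9.54 on replicate 4 with the nearest at 9.72, and Vim at 14.52 on replicate 3 with the nearest at 14.62.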

How the results depend on the processing

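Under 20 alternatives, 8 of which left out 1 array each, the count of probes past the threshold ran from 4148 to 5240, against 4906. The replicate numbers did not pair the samples: deviations of same-numbered arrays correlated at -0.02, -0.06, -0.08 and -0.003. With the replicate block 4206 probes were called and the mesenchymal genes went from 7 calls to 4, with Prrx1 at an adjusted p of 0.0612 in limma. Of the 12 members' probe differences 221 values stayed within 1 SD and 7 moved. In 3 the sign changed, all of undetected or dim keratins: Krt18 with each chromosome centred and without rescued replicate 4, and Krt7 without rescued replicate 3 (0.06). The moved ones were Krt13 (2.15 and 2.64), Krt19 (1.26 and 1.59) and Sprr2d (1.47 and 1.84), without background correction and with normexp, and Krt18 at -0.08 with each chromosome centred. Of 474 differences of 24 named genes 468 kept direction and call, 5 lost the call and 1 reversed, Tpm2 at 0.13 when a gene's probes were averaged (adjusted p = 0.570 in limma). Without background correction 10 of these 24 genes kept the call with a difference smaller by over 1.5 times.

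Some list counts moved by more than 1.5 times. Requiring detection on all 8 arrays removes Krt13, Krt19 and Sprr2d from the test and left 2 members called, Sprr1a and Upk3b, 1 cornified envelope gene and 0 epithelial regulators. Detection on at least 1 array gave 7 cornified envelope calls and 1 other keratin, Krt33a, named after its values were seen, as did no filter for the keratin. Centred chromosomes gave 5 cornified envelope, 3 regulator, 3 mesenchymal and 1 other keratin call. Regulators had 2 calls without background correction, with normexp, with a trended robust variance and with averaged probes, and other keratins had 1 with array weights and with averaged probes. Leaving out 1 array each gave 3 to 6 cornified envelope, 4 to 6 mesenchymal, 1 to 2 regulator and 0 to 1 other keratin calls, with rescued replicate 3 behind the extremes of the envelope and mesenchymal counts, knockout replicate 2 behind the regulators and knockout replicate 4 behind the keratin. Upk3b was called besides with array weights, centred chromosomes or without rescued replicate 3. The causes of these changes were not tested, apart from the genes a filter adds or removes. Signal near background limits Krt7, Krt8, Krt14 and Krt18.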
